A study of Drosophila mauritiana and Drosophila melanogaster and Drosophila simulans with 12 samples.

Results

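The eye-antennal imaginal discs of *D. melanogaster* and *D. simulans* were compared through *D. mauritiana*, the species that was sequenced with both read types. The log2-fold change reported for each gene was the difference between *D. melanogaster* and *D. mauritiana* in single-end libraries minus the difference between *D. simulans* and *D. mauritiana* in paired-end libraries, so a positive value means higher expression in *D. melanogaster*. The genes were those listed in both tables of counts of the reciprocal re-annotation whose models differed by at most 49 bp between the species of each table and whose counts averaged 10 or more per library in each table. This set holds 9607 genes of the 13311 genes that both tables share. Of the others, 72 were left out by the length rule and 3632 by the mean count alone. The lowest mean count inside the set was 10 and the highest outside it 9.83, and the length differences on either side of the limit were 49 and 50 bp.

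All 12 libraries came from eye-antennal discs of female late L3 larvae raised at 25 °C and dissected 120 h after eggs were laid, each from a pool of 40 to 50 discs. There were 4 groups of 3 biological replicates. *D. melanogaster* strain OreR (replicates A to C) was sequenced as 50 bp single-end reads and *D. simulans* strain YVF (replicates A to C), which is named for the markers yellow, vermillion and forked, as 100 bp paired-end reads. *D. mauritiana* strain TAM16 was sequenced as single-end reads in replicates A to C and as paired-end reads in replicates D to F. Each species is represented by 1 strain, so a difference between species and a difference between strains cannot be told apart. The *D. mauritiana* libraries of the different read types are also separate biological samples, so read type and sample set cannot be told apart, and the comparison takes both to act alike in the 3 species.

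The eye-antennal disc is the epithelium that gives rise to the compound eye, the antenna, the maxillary palp and most of the head capsule of the fly. In late L3 larvae a furrow moves across the eye field and photoreceptors form behind it, while the antennal field is patterned in rings. *D. simulans* and *D. mauritiana* are sister species, and *D. melanogaster* is their close relative outside this pair. In RNA from whole discs, fewer cells of a type and less RNA per cell cannot be told apart.

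The sums of counts per library over the joined genes ranged between 17168962 and 27617903 in *D. melanogaster*, between 126129942 and 162373479 in *D. simulans*, between 17619560 and 34056746 in single-end *D. mauritiana* and between 121424737 and 156921879 in paired-end *D. mauritiana*. Paired-end reads had been cut into 50 bp pieces before mapping, so that 1 cDNA fragment gave several counts there. Within the groups, *D. melanogaster* B stood apart from A and C (Spearman's rho over the genes of the set 0.962 and 0.97, against 0.996 between A and C), and single-end *D. mauritiana* C stood apart from A (0.957). The summed markers of the disc itself were alike in all libraries: the 12 retinal determination genes (*ey*, *so*, *eya*, *dac* and others) summed to between 1645 and 1827 CPM (counts scaled to a common, TMM-normalized library size) in *D. melanogaster*, between 1816 and 1957 CPM in *D. simulans* and between 1423 and 2071 CPM in *D. mauritiana*. The lists of fat body, hemocyte, muscle and neuronal markers were not alike. The 10 fat body genes summed to 5991, 404 and 5242 CPM in *D. melanogaster* A, B and C and to between 81.2 and 201 CPM in *D. simulans*, with between 758 and 2355 CPM in single-end and between 88.1 and 134 CPM in paired-end *D. mauritiana*. The 17 hemocyte genes summed to 4481, 906 and 4054 CPM in *D. melanogaster* A, B and C, against between 1445 and 2577 CPM in *D. simulans* and between 1143 and 1891 CPM in *D. mauritiana*. The 23 muscle genes summed to between 3137 and 5068 CPM in *D. melanogaster* and between 7892 and 8935 CPM in *D. simulans*, with between 3333 and 4173 CPM in single-end and between 6905 and 7602 CPM in paired-end *D. mauritiana*. The neuronal genes summed to between 283 and 421 CPM in *D. melanogaster* and between 632 and 787 CPM in *D. simulans*, with between 332 and 591 CPM in single-end and between 819 and 966 CPM in paired-end *D. mauritiana*. Both sums were higher in all paired-end libraries than in any single-end library. The part that tissue adhering to the discs had in the results was not tested, and values are given per library where these sums move with a gene.

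**Figure D1:**
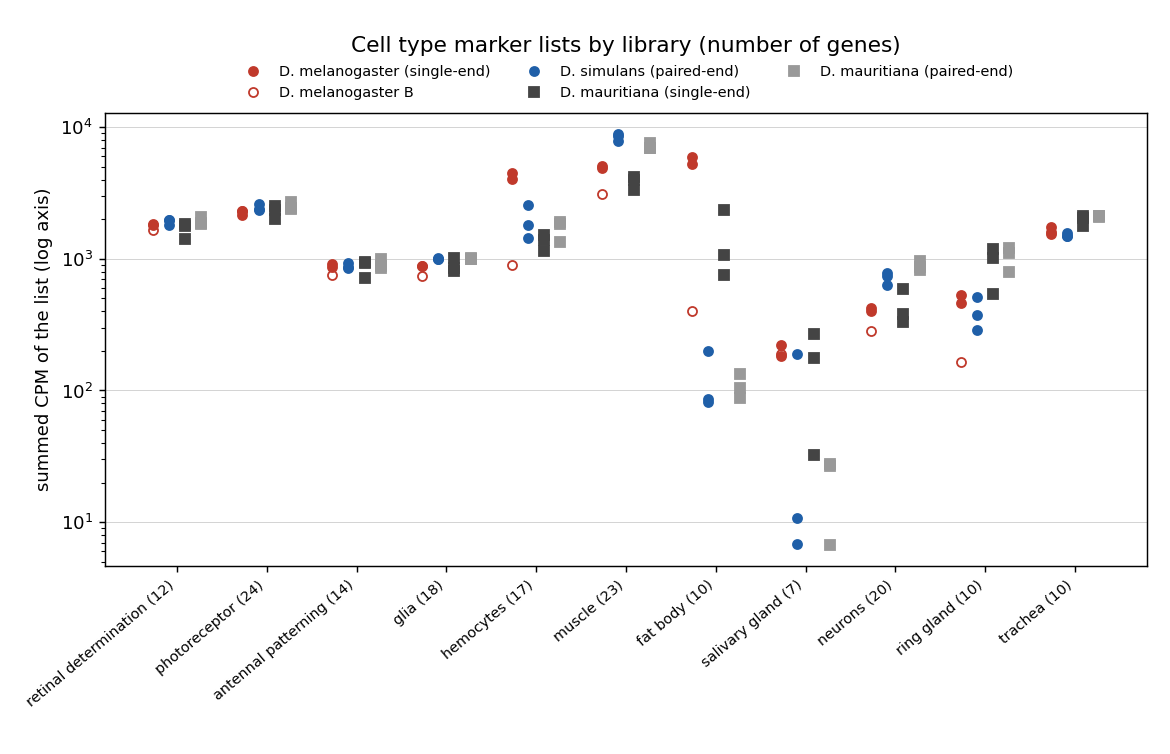
Summed CPM (log axis) of the genes of each marker list in the 12 libraries, with *D. melanogaster* B as an open circle. The retinal determination, photoreceptor and antennal lists lie close together in all libraries, while the fat body list spans from 81.2 CPM in *D. simulans* to 5991 CPM in *D. melanogaster* and the hemocyte list is at 906 CPM in *D. melanogaster* B.

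A total of 1450 genes of the set were differentially expressed between *D. melanogaster* and *D. simulans* (15.1 % of the 9607 genes, quasi-likelihood test of edgeR, adjusted over all 11287 genes tested after Benjamini and Hochberg, adjusted p below 0.05). Expression was higher in *D. melanogaster* for 645 genes (6.71 %) and higher in *D. simulans* for 805 genes (8.38 %). The median log2-fold change over the set was -0.01, with 5 and 95 % quantiles of -1.72 and 1.73, and the median standard error was 0.26. Called genes had a median absolute log2-fold change of 1.67. In each of the 12 fits that left out 1 library, 964 of the 1450 genes were called again, 411 of them higher in *D. melanogaster* and 553 higher in *D. simulans*. Among genes that averaged 10 or more counts in each of the 4 groups, 1246 of 8988 (13.9 %) were called. The remaining 619 genes passed the count rule only through their other groups, and 204 of them (33 %) were called. Of 326 genes that averaged under 10 counts in *D. melanogaster*, 113 (34.7 %) were called, 105 of them higher in *D. simulans*. Of 73 such genes in *D. simulans*, 36 (49.3 %) were called, all higher in *D. melanogaster*.

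Without the detour through *D. mauritiana*, the plain difference between *D. melanogaster* and *D. simulans* libraries was called for 5538 genes (57.6 %). Between the single-end and the paired-end libraries of *D. mauritiana* itself, 5113 genes of the set (53.2 %) were called, although species and strain were the same. By construction, the plain difference of a gene is the value through *D. mauritiana* plus the difference between the single-end and the paired-end *D. mauritiana* libraries. Of the 1450 genes called through *D. mauritiana*, 1204 (83 %) were also called in the plain difference, which is 21.7 % of its calls, and the sign was the same for 1193 of them. The other 246 genes were not called in the plain difference.

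The comparison is the difference between a single-end comparison (*D. melanogaster* against *D. mauritiana*) and a paired-end comparison (*D. simulans* against *D. mauritiana*), which use separate libraries. The single-end comparison called 2870 genes of the set (29.9 %) and the paired-end comparison 1470 genes (15.3 %), 667 higher and 803 lower in *D. simulans*. Without paired-end *D. mauritiana* D 401 genes were higher, and without *D. simulans* C 439 were higher and 532 lower. Across the 9607 genes the log2-fold changes of both comparisons had a Spearman's rho of 0.301, which describes genes of the same libraries and carries no test. Of the 1450 genes called through *D. mauritiana*, 828 (57.1 %) passed the threshold in the single-end comparison alone and 244 (16.8 %) in the paired-end comparison alone. Another 186 genes (12.8 %) were called in both in opposite directions, with *D. mauritiana* between the other species, and 131 (9.03 %) in both in the same direction. The remaining 61 genes (4.21 %) were called in neither. Of the genes higher in *D. melanogaster*, 341 were called in the single-end comparison alone and 128 in the paired-end comparison alone, and of the genes higher in *D. simulans* these numbers were 487 and 116.

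**Figure D2:**
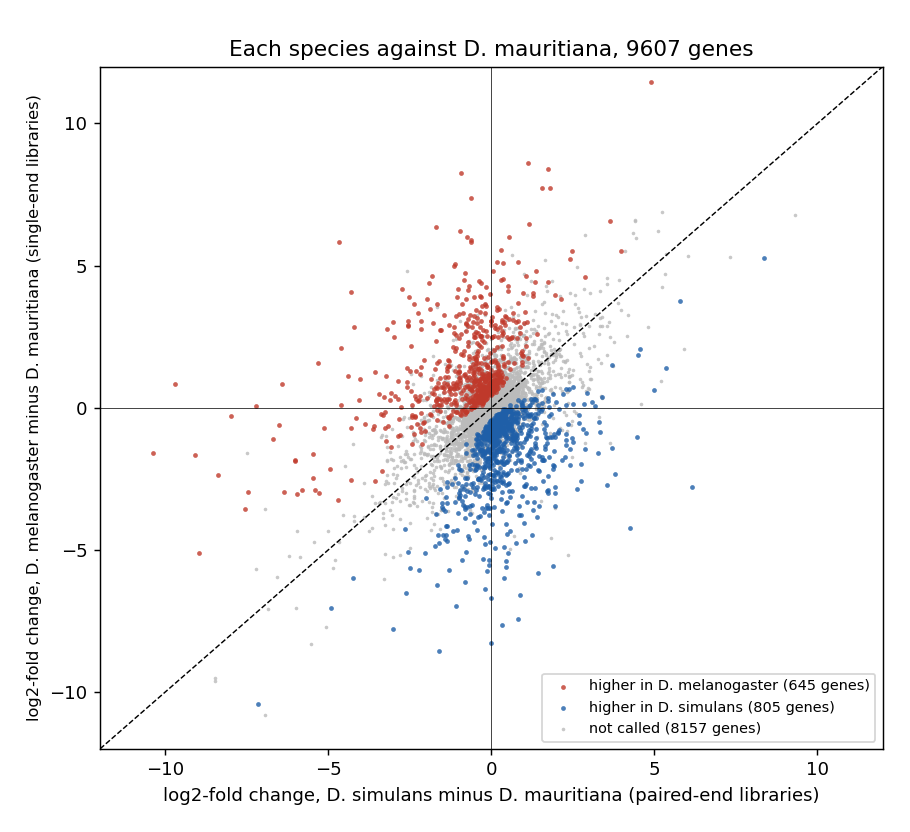
Log2-fold change between *D. simulans* and *D. mauritiana* in paired-end libraries (x axis) against that between *D. melanogaster* and *D. mauritiana* in single-end libraries (y axis), 1 point per gene of the set. Points above the dashed line of equality are higher in *D. melanogaster*, and the 645 called ones are red. The 805 genes called higher in *D. simulans* are blue and lie below the line.

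The 10 genes with the highest log2-fold changes showed different patterns. They came from calls that averaged 100 or more counts per library over the single-end and over the paired-end libraries and held without each library in turn. Each of these means spans both species of a comparison, so a gene near 0 in either species could pass through the other. *Gld2*, which encodes a cytoplasmic poly(A) polymerase, *CHKov1*, known in *D. melanogaster* for a natural allele linked to resistance against the sigma virus, and *St2*, which encodes a sulfotransferase, were high in *D. melanogaster* only. *Gld2* had 135, 195 and 144 CPM in *D. melanogaster* and 0.603, 0.836 and 1.34 CPM in single-end *D. mauritiana*, while *D. simulans* had 0.715, 2.07 and 1.71 CPM and paired-end *D. mauritiana* 2.19, 3.14 and 1.68 CPM. It differed by a log2-fold change of 8.01 ± 0.58 (adjusted p = 5.17e-06), given here and below with its standard error from 3 libraries per group, and the paired-end comparison was -0.63 (adjusted p = 0.289, edgeR). All 3 *D. melanogaster* libraries were above all 9 others. *CHKov1* had 78.3, 163 and 91.5 CPM in *D. melanogaster*, 2.40, 5.11 and 2.76 CPM in *D. simulans* and at most 10.5 CPM in *D. mauritiana*, a log2-fold change of 7.18 ± 0.69 (adjusted p = 4.24e-05). *St2* had 109, 167 and 109 CPM in *D. melanogaster*, 1.32, 1.07 and 0.930 CPM in *D. simulans* and at most 3.52 CPM in *D. mauritiana*, a log2-fold change of 6.75 ± 0.53 (adjusted p = 9.91e-06). For both genes the *D. melanogaster* libraries did not overlap with those of any other group. On the published *D. mauritiana* genome the model of *Gld2* (FBgn0038934) lies on 3R from 17348378 to 17352732 in 3 exons, that of *CHKov1* (FBgn0045761) on 3R from 20390366 to 20391784 in 4 exons and that of *St2* (FBgn0037665) on 3R from 15744225 to 15745310 in 2 exons.

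In a further 6 of the 10 genes the *D. simulans* libraries stood apart by low values. *UQCR-11L*, a paralog of a small subunit of respiratory complex III, had 10.8, 21 and 10.3 CPM in *D. melanogaster* and 57.8, 41.6 and 27.4 CPM in single-end *D. mauritiana*. In *D. simulans* it had 2, 1 and 1 counts per library, against 1784, 1938 and 2422 counts in paired-end *D. mauritiana*. The ratio of *D. simulans* to *D. mauritiana* over the summed counts was 0.000648 (95% exact interval 0.000176 to 0.00166). This interval takes each count as independent and is too narrow, since 1 paired-end fragment can give several counts. The log2-fold change of 8.78 ± 0.61 (adjusted p = 4.84e-06) rests on these few counts and depends on the prior count of the fit. *Veneno*, whose namesake in the mosquito *Aedes aegypti* is a Tudor protein of the piRNA pathway, had 39.3, 64 and 37.7 CPM in *D. melanogaster* and 51.4, 47.3 and 36.9 CPM in single-end *D. mauritiana*, while *D. simulans* had 0.122, 0.142 and 0.228 CPM and paired-end *D. mauritiana* 25.4, 21.6 and 27.7 CPM. Here the single-end comparison was 0.06 (adjusted p = 0.884) and the paired-end comparison -7.21 (adjusted p = 7.94e-08, both edgeR), which gave 7.27 ± 0.38 (adjusted p = 5.62e-07). *Balat* (log2-fold change 7.42), *lncRNA:CR42790* (6.05), *CG4927* (5.59) and *CG14990* (6.89) had at most 0.122 CPM in every *D. simulans* library and at least 0.375 CPM in every other library. The counts in *D. simulans* were 4, 3 and 3 for *Balat*, 5, 4 and 4 for *lncRNA:CR42790*, 15, 16 and 17 for *CG4927* and 4, 3 and 8 for *CG14990*, so these fitted values depend on the prior count as well. *CG14990* and *CG4927* were lowest in *D. melanogaster* B among the *D. melanogaster* libraries, with 8.96, 1.26 and 8.56 CPM and 9.69, 1.92 and 7.22 CPM, which is also the library with the low fat body sum. With the log2 sum of the fat body genes as a covariate, an alternative added with the data in view, their log2-fold changes were 5.64 and 4.88 and both were still called.

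The last of the 10 genes, *Obp99a*, encodes an odorant-binding protein and differed in all pairs of species. It had 383, 428 and 438 CPM in *D. melanogaster* and 76.3, 61 and 37.2 CPM in single-end *D. mauritiana*, while *D. simulans* had 0.650, 0.426 and 0.954 CPM and paired-end *D. mauritiana* 8.32, 14.8 and 14.4 CPM. *D. melanogaster* was thus above and *D. simulans* below *D. mauritiana*, in every library. The log2-fold change was 7.04 ± 0.48 (adjusted p = 4.16e-06), from 2.84 in the single-end comparison minus -4.20 in the paired-end comparison.

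Of the 10 genes with the lowest log2-fold changes, taken by the same rule, 9 were near 0 in *D. melanogaster*. *GstD2*, a glutathione S-transferase of the delta class, had 1.22, 1.02 and 0.933 CPM in *D. melanogaster* and 75.9, 76.3 and 51.6 CPM in single-end *D. mauritiana*, while *D. simulans* had 120.5, 134 and 69.4 CPM and paired-end *D. mauritiana* 102, 82.6 and 63.4 CPM. Its log2-fold change was -6.38 ± 0.41 (adjusted p = 2.28e-06). *FucTC*, which encodes a fucosyltransferase, had 0.872, 2.16 and 1.10 CPM in *D. melanogaster* and 42.6, 39.4 and 41.6 CPM in *D. simulans*, with between 43.9 and 77.8 CPM in *D. mauritiana* and a log2-fold change of -5.62 ± 0.32 (adjusted p = 1.04e-06). *CG32055* (log2-fold change -7.96), *CG14195* (-6.70), *CG13972* (-6.05), *CG8539* (-5.88), *CG10559* (-5.72), *pkm* (-5.72) and *CG4210* (-5.33) had at most 1.8 CPM in every *D. melanogaster* library and at least 2.68 CPM in every other library. The counts in *D. melanogaster* were 7, 2 and 6 for *CG14195*, 9, 3 and 2 for *CG13972* and 2, 11 and 1 for *CG4210*, and their fitted values depend on the prior count. *CG10559* (FBgn0039323) lies on 3R from 20381779 to 20383207, close to *CHKov1*, which differed in the opposite direction. It was highest in *D. simulans*, with 141, 162 and 131 CPM, and had 1.12, 1.80 and 0.933 CPM in *D. melanogaster*, so that both comparisons were called with opposite signs (-4.47 in the single-end comparison and 1.25 in the paired-end comparison).

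The exception was *CG7194*, where *D. simulans* stood apart by high values. It had 5.16, 4.09 and 4.34 CPM in *D. melanogaster* and 7.96, 5.94 and 14.1 CPM in single-end *D. mauritiana*, while *D. simulans* had 249.7, 244 and 239.7 CPM and paired-end *D. mauritiana* 13.1, 11.5 and 8.85 CPM. The log2-fold change was -5.49 ± 0.38 (adjusted p = 4.84e-06), of which the paired-end comparison gave 4.46. The gene (FBgn0035868) lies on 3L from 7908246 to 7909560 in 2 exons. Some of these genes have paralogs (such as the *GstD*, *CHKov* and *UQCR-11* genes), and how alike their sequences are was not examined. Reads that fit paralogs equally well cannot be told apart in these counts, and values of such genes are uncertain to that extent.

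**Figure D3:**
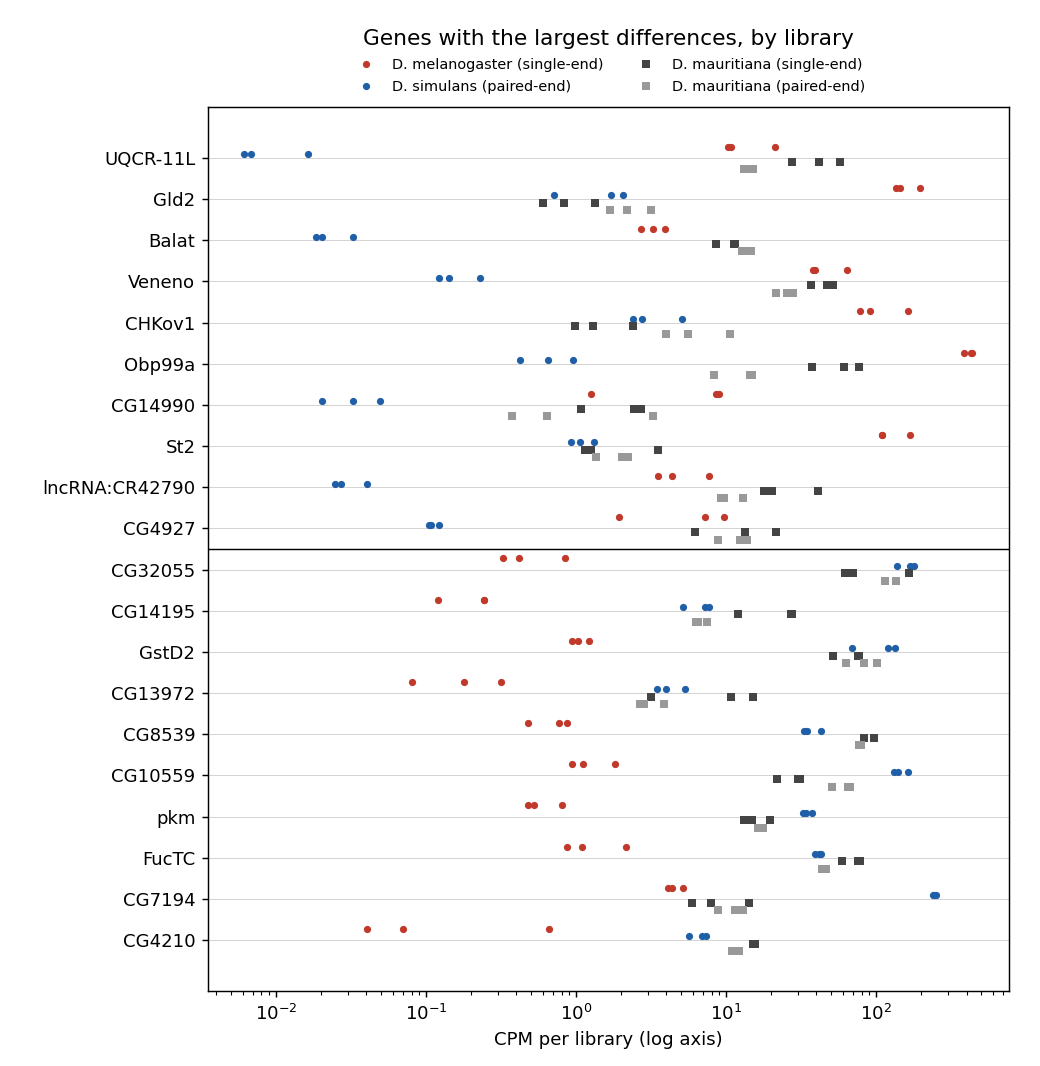
CPM per library (log axis) of the 10 genes with the largest positive (above the line) and of the 10 with the lowest log2-fold changes. *Gld2*, *CHKov1* and *St2* are high in *D. melanogaster* (red) only, *UQCR-11L* and *Veneno* are low in *D. simulans* (blue), and *CG7194* lies between 239.7 and 249.7 CPM in *D. simulans* while no library of the other species exceeds 14.1 CPM.

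In small RNA pathways, Argonaute and Piwi proteins are guided to their target RNAs by short RNAs, and the piRNA branch, best known from the germline, silences transposons. Of 34 members in the set, 5 were higher in *D. melanogaster* (log2-fold changes of 0.79 to 3.84) and 6 higher in *D. simulans* (-3.87 to -0.73), which is 32.4 % against 15.1 % of all genes of the set. The median over the list was -0.03, against -0.01 over the set, so the members did not move in 1 direction. Each of the Piwi proteins *piwi*, *aub* and *AGO3* was called. *piwi* had 3.07, 3.25 and 3.45 CPM in *D. melanogaster* and 19.2, 16.3 and 22.1 CPM in single-end *D. mauritiana*, while *D. simulans* had 1.14, 1.66 and 1.48 CPM and paired-end *D. mauritiana* 25.4, 27.4 and 33 CPM. Both species were below *D. mauritiana*, *D. simulans* by more, and the log2-fold change was 1.76 ± 0.25 (adjusted p = 0.000831). *AGO3* had 2.51, 3.25 and 1.38 CPM in *D. melanogaster* and 9.35, 5.56 and 7.11 CPM in single-end *D. mauritiana*, while *D. simulans* had 0.146, 0.149 and 0.240 CPM and paired-end *D. mauritiana* 7.98, 9.39 and 6.62 CPM. Its log2-fold change of 3.84 ± 0.49 (adjusted p = 0.000344) was measured on a model of 516 bp in *D. melanogaster*, 490 bp in *D. simulans* and 470 bp in *D. mauritiana*. *aub* had 1.46, 0.902 and 1.58 CPM in *D. melanogaster* and 6.39, 5.70 and 6.69 CPM in single-end *D. mauritiana*, while *D. simulans* had 12.7, 17.3 and 20.1 CPM and paired-end *D. mauritiana* 5.53, 7.43 and 5.42 CPM. It was higher in *D. simulans* (log2-fold change -3.68, standard error 0.35, adjusted p = 4.03e-05). Both genes lie close together on 2L of the *D. mauritiana* genome, *piwi* (FBgn0004872) from 10557898 to 10562664 and *aub* (FBgn0000146) from 10573257 to 10576859.

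Partners of the Piwi proteins differed as well. *krimp*, a Tudor protein that binds Aub and AGO3, had 4.39, 3.85 and 3.85 CPM in *D. melanogaster* and 12.5, 9.83 and 11.1 CPM in single-end *D. mauritiana*, while *D. simulans* had 76.2, 67 and 67.9 CPM and paired-end *D. mauritiana* 14.7, 11.5 and 13.6 CPM, a log2-fold change of -3.87 ± 0.19 (adjusted p = 4.49e-07). *D. simulans* was above *D. mauritiana* and *D. melanogaster* below it, without overlap in either comparison. *del*, which encodes Deadlock of the complex that licenses piRNA clusters for transcription, was lower in *D. melanogaster* only. It had 11.4, 20.1 and 10.5 CPM in *D. melanogaster* and between 77.7 and 88.2 CPM in the 9 libraries of the other species, a log2-fold change of -2.54 ± 0.27 (adjusted p = 0.000104). The other called members were *SoYb*, *cuff* and *r2d2*, higher in *D. melanogaster*, and *Gasz*, *vret* and *Dcr-1*, higher in *D. simulans*.

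**Figure D4:**
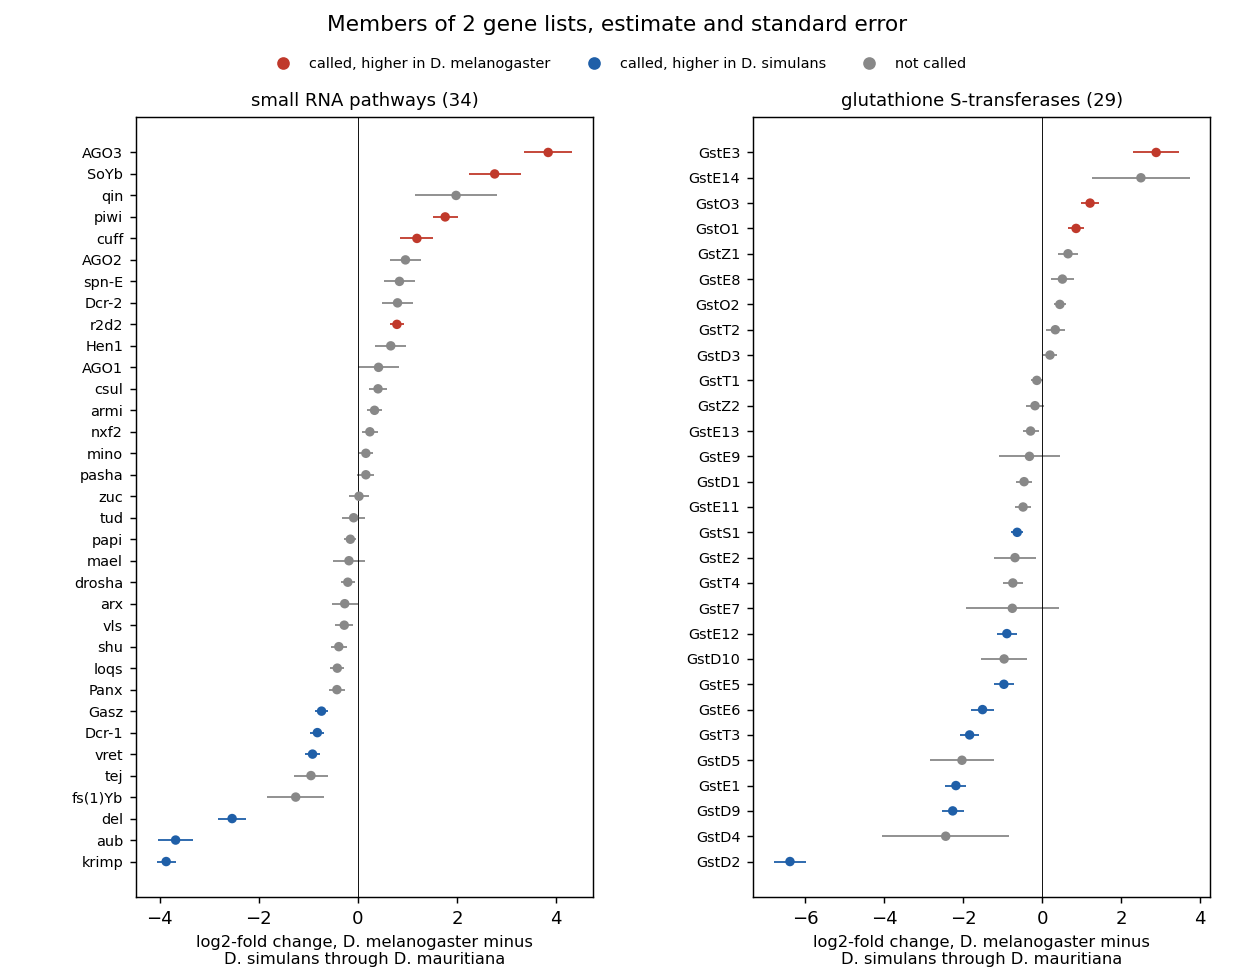
Log2-fold change between *D. melanogaster* and *D. simulans* through *D. mauritiana*, with its standard error, for the 34 small RNA pathway members and the 29 glutathione S-transferases of the set. Called members lie on both sides of 0 in both lists, from *krimp* at -3.87 to *AGO3* at 3.84 and from *GstD2* at -6.38 to *GstE3* at 2.89.

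Glutathione S-transferases conjugate glutathione to reactive compounds and belong, with the cytochromes P450, to the enzymes of detoxification. Of 29 glutathione S-transferases in the set, 3 were higher in *D. melanogaster* (0.86 to 2.89) and 8 higher in *D. simulans* (-6.38 to -0.63), together 37.9 % against 15.1 % over the set, with a median of -0.48. Besides *GstD2*, the called members with the smallest adjusted p were *GstE1*, *GstD9* and *GstT3*. *GstE1* had 49.4, 46.8 and 55.1 CPM in *D. melanogaster* and 47.5, 59.8 and 33.7 CPM in single-end *D. mauritiana*, while *D. simulans* had 172, 136 and 125 CPM and paired-end *D. mauritiana* 31.8, 29.99 and 27.4 CPM. This difference was one of *D. simulans* (log2-fold change -2.18, standard error 0.27, adjusted p = 0.000249, single-end comparison 0.10). *GstD9* had 17.4, 19.97 and 19.5 CPM in *D. melanogaster* and 104, 90.3 and 76.4 CPM in *D. simulans*, and between 71.2 and 114 CPM in *D. mauritiana*, a log2-fold change of -2.26 ± 0.28 (adjusted p = 0.000273). *GstT3* had a log2-fold change of -1.83 (adjusted p = 0.000546).

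Of 49 cytochromes P450, 6 were higher in *D. melanogaster* and 8 higher in *D. simulans* (28.6 %, against 15.1 % over the set), with a median of 0.07. *Cyp4e1* had 7.74, 4.93 and 6.77 CPM in *D. melanogaster* and 0.382, 0.453 and 0.523 CPM in *D. simulans*, with 1.09, 0.896 and 0.726 CPM in single-end and 1.04, 1.22 and 0.750 CPM in paired-end *D. mauritiana* (log2-fold change 4.0, standard error 0.42, adjusted p = 8.96e-05). *Cyp301a1*, an enzyme needed for a proper adult cuticle, was below *D. mauritiana* in both species and lowest in *D. simulans*, with 7.36, 8.0 and 8.19 CPM in *D. melanogaster* and 39.6, 39.99 and 29.7 CPM in single-end *D. mauritiana*, while *D. simulans* had 2.15, 1.85 and 2.14 CPM and paired-end *D. mauritiana* 19.7, 21.3 and 21.9 CPM (log2-fold change 1.14, standard error 0.20, adjusted p = 0.00243). *Cyp6d2* and *Cyp9c1* were higher in *D. simulans*, with log2-fold changes of -3.11 (adjusted p = 0.00148) and -1.54 (adjusted p = 5.44e-05). *Cyp6d2* had 21.3, 24.2 and 18.5 CPM in *D. simulans* against at most 2.49 CPM in every library of the other species. The P450 genes called higher in *D. simulans* numbered 5 without *D. melanogaster* A, *D. simulans* B or paired-end *D. mauritiana* D or E, and 4 without *D. melanogaster* C, *D. simulans* C or paired-end *D. mauritiana* F. Those called higher in *D. melanogaster* ranged between 4 and 9 over the fits without 1 library.

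Structural proteins of the cuticle, which the disc epithelium secretes at metamorphosis, had 11 members higher in *D. melanogaster* and 8 higher in *D. simulans* among 54 in the set (35.2 %, against 15.1 % of all genes). The median of the list was 0.88, but it was -0.12 over the 32 members that had at least 10 counts in every library. *Cpr97Ea* had 19.7, 31.5 and 24.6 CPM in *D. melanogaster* and 10.8, 7.91 and 12 CPM in single-end *D. mauritiana*, while *D. simulans* had 3.72, 2.71 and 2.84 CPM and paired-end *D. mauritiana* 8.03, 6.69 and 5.21 CPM (log2-fold change 2.41, standard error 0.34, adjusted p = 0.000685). *Cpr67B* had 3.42, 3.13 and 3.93 CPM in *D. melanogaster* and 38.1, 34.9 and 31.7 CPM in *D. simulans*, with between 20.3 and 36.4 CPM in *D. mauritiana* (log2-fold change -3.70, standard error 0.27, adjusted p = 5.17e-06). *TwdlE* and *Lcp65Ad* were below *D. mauritiana* in *D. melanogaster* and above it in *D. simulans*, with log2-fold changes of -2.14 (adjusted p = 4.82e-05) and -2.94 (adjusted p = 8.49e-05).

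Odorant-binding proteins carry small hydrophobic molecules, in chemosensory organs and elsewhere. Of 20 members in the set, 2 were higher in *D. melanogaster* and 3 higher in *D. simulans* (25 %, against 15.1 % over the set), with a median of -1.08. Without *D. melanogaster* A or C, single-end *D. mauritiana* A or B, paired-end *D. mauritiana* F or *D. simulans* A or C, 1 member was called higher in *D. simulans*, and without *D. melanogaster* B, paired-end *D. mauritiana* D or E or any *D. simulans* library 1 member was called higher in *D. melanogaster*. *Obp83g* had 12.7, 23.6 and 15.5 CPM in *D. melanogaster* and 39.9, 38.1 and 21.8 CPM in single-end *D. mauritiana*, while *D. simulans* had 28.5, 17.3 and 21.7 CPM and paired-end *D. mauritiana* 12.7, 12.5 and 13.6 CPM (log2-fold change -1.75, standard error 0.38, adjusted p = 0.00975). *Obp28a* had 0.314, 22.1 and 3.12 CPM in *D. melanogaster* and at most 0.538 CPM elsewhere (log2-fold change 6.16, adjusted p = 0.0356), so only *D. melanogaster* B and C were above the other groups. Its call was lost without *D. melanogaster* B, *D. simulans* A, B or C, single-end *D. mauritiana* A or paired-end *D. mauritiana* D or E (adjusted p 0.0662 to 0.0856). The call of *Obp84a* (log2-fold change -1.20, adjusted p = 0.0334) was lost without *D. melanogaster* A or C, *D. simulans* A, B or C, single-end *D. mauritiana* A or B or paired-end *D. mauritiana* D, E or F (adjusted p 0.0527 to 0.0725). For *Obp83g* and *Obp84a*, the libraries of *D. melanogaster* and *D. simulans* overlapped. Their plain differences were -0.39 and -0.28 (adjusted p = 0.238 and 0.334, edgeR).

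**Figure D5:**
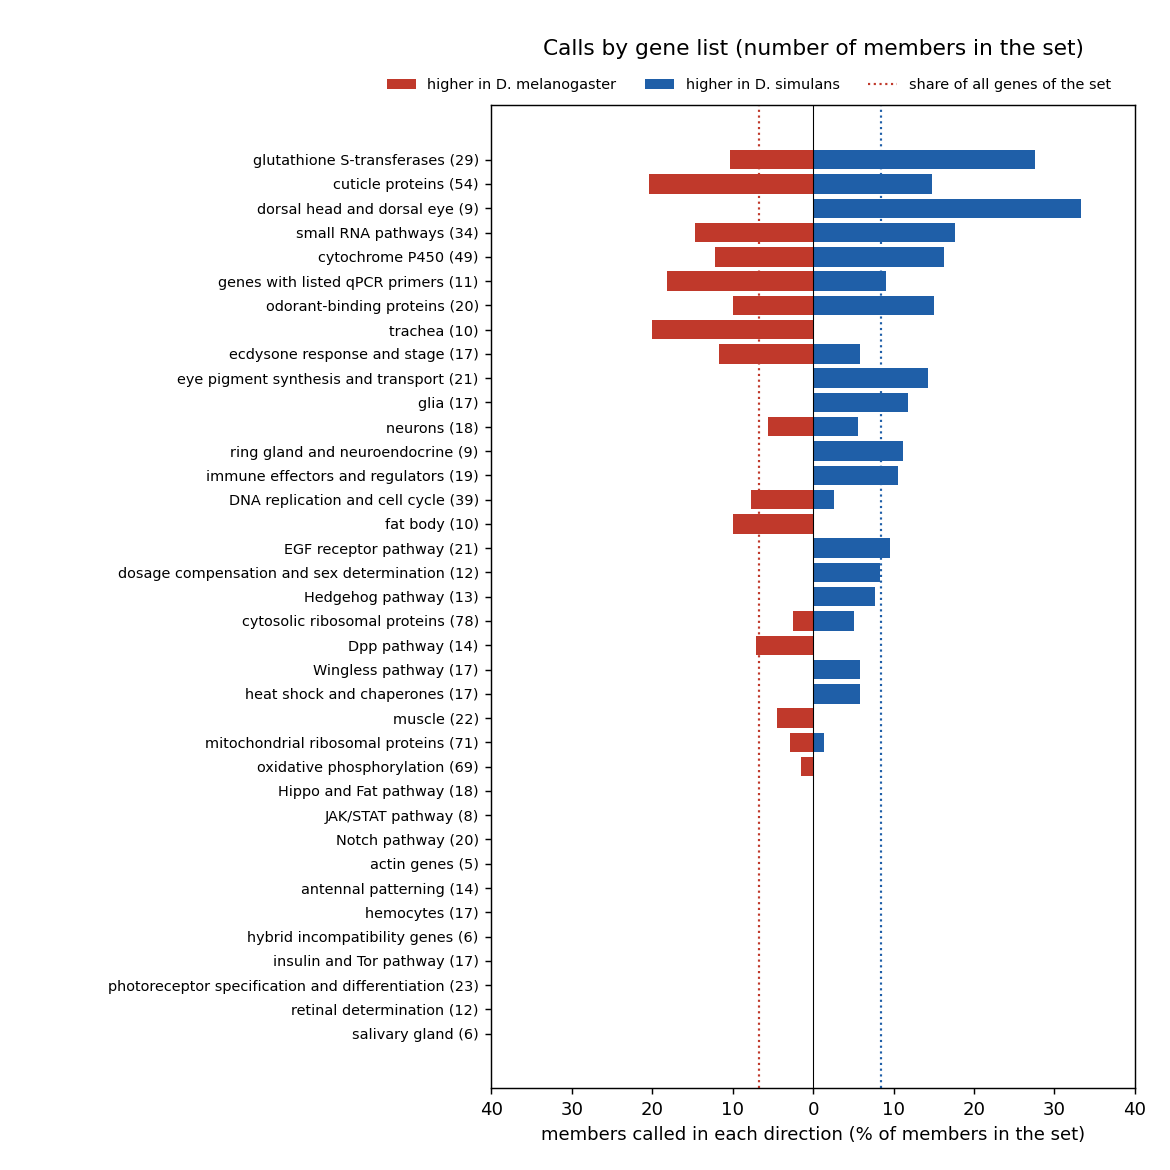
Share of the members of each gene list (number in the set in brackets) that were called higher in *D. melanogaster* (red, to the left) or higher in *D. simulans* (blue, to the right), with the shares over the 9607 genes of the set as dotted lines (6.71 and 8.38 %). Glutathione S-transferases, cuticle proteins, the dorsal head and dorsal eye list and small RNA pathways lie at the top. The retinal determination, photoreceptor and antennal lists have no call.

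The patterning of the disc rests on transcription factors and on signaling pathways. None of the 12 retinal determination genes (log2-fold changes -0.67 to 0.52), the 23 photoreceptor genes (-0.66 to 0.45) or the 14 antennal patterning genes (-1.04 to 0.90) in the set was called, against 15.1 % of all genes of the set. The medians of these lists were 0.16, 0.02 and 0.17. In the lists of the Notch (20 members), JAK/STAT (8), Hippo and Fat (18) and insulin and Tor (17) pathways no member was called either. The insulin-like peptide gene *Ilp5*, which was called, had been placed in the ring gland list and not in the insulin and Tor list. DESeq2, limma-trend and voom also called none in these 7 lists, and an unadjusted p below 0.05 was found for 2 retinal determination genes and 1 gene each of the antennal, Hippo and Fat, and insulin and Tor lists, with 0 in the other 3 lists. The 7 lists gained calls in some fits. Without single-end *D. mauritiana* C, 2 photoreceptor, 2 Notch and 1 Hippo and Fat gene were called higher in *D. melanogaster*, and 1 gene each of the retinal determination, Hippo and Fat, and insulin and Tor lists higher in *D. simulans*. A call higher in *D. simulans* was also gained by 1 retinal determination gene without single-end *D. mauritiana* A and with the fat body covariate, and by 1 photoreceptor gene without *D. melanogaster* B. The plain difference, in which read type is not cancelled, called members of all 7 lists. *dac*, a retinal determination gene, had 177, 72.9 and 164 CPM in *D. melanogaster* and 159, 200.04 and 194 CPM in *D. simulans*, with 64, 94.4 and 136 CPM in single-end and 179.6, 185 and 197 CPM in paired-end *D. mauritiana*. Its log2-fold change of 0.52 ± 0.44 (adjusted p = 0.507) was within the spread among these libraries.

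Of 9 selectors of the dorsal head and dorsal eye, 3 were higher in *D. simulans* (33.3 %, against 8.38 % of all genes of the set). *ara* and *caup* are neighbouring genes of the Iroquois complex, which specifies dorsal eye fate. *caup* had 42.5, 41.1 and 45 CPM in *D. melanogaster* and 58.9, 65.8 and 61.4 CPM in single-end *D. mauritiana*, while *D. simulans* had 62.6, 65.2 and 66.7 CPM and paired-end *D. mauritiana* 55, 56.5 and 59.8 CPM. *ara* had 38.8, 43.7 and 40.6 CPM in *D. melanogaster* and 55.3, 61.7 and 57.1 CPM in single-end *D. mauritiana*, while *D. simulans* had 57.7, 53.1 and 57.2 CPM and paired-end *D. mauritiana* 54.5, 51.3 and 55.7 CPM. The *D. melanogaster* libraries were below those of both other species, with log2-fold changes of -0.72 ± 0.12 (adjusted p = 0.00201) for *caup* and -0.56 ± 0.13 (adjusted p = 0.0109) for *ara*. The homeobox gene *oc* (orthodenticle), required for the ocellar region, had 10.2, 8.06 and 11 CPM in *D. melanogaster* and 18.9, 19.4 and 32 CPM in single-end *D. mauritiana*, while *D. simulans* had 29.1, 33.5 and 35.3 CPM and paired-end *D. mauritiana* 41.3, 42.6 and 38 CPM. Its log2-fold change of -0.94 ± 0.28 (adjusted p = 0.0416) was no longer called without *D. melanogaster* A, B or C, *D. simulans* B or C or paired-end *D. mauritiana* D, E or F (adjusted p 0.0501 to 0.0796).

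Calls in the other signaling pathways concerned 1 or 2 members each. In the EGF receptor pathway 2 of 21 members were called higher in *D. simulans* through *D. mauritiana* (9.52 %, against 8.38 % of all genes of the set). The ligand gene *grk* (gurken), known for its role in the oocyte, had 1.19, 0.661 and 1.05 CPM in *D. melanogaster* and 10.9, 10.7 and 8.56 CPM in single-end *D. mauritiana*, while *D. simulans* had 4.42, 3.96 and 3.76 CPM and paired-end *D. mauritiana* 10.8, 11.4 and 8.68 CPM (log2-fold change -2.0, standard error 0.31, adjusted p = 0.0014). The secreted inhibitor *aos* (argos) had 65.4, 65.9 and 64.4 CPM in *D. melanogaster* and 99.9, 98.9 and 85.4 CPM in single-end *D. mauritiana*, while *D. simulans* had 67, 61.5 and 71.1 CPM and paired-end *D. mauritiana* 56.3, 56.8 and 67.3 CPM (log2-fold change -0.68, standard error 0.15, adjusted p = 0.00806). For *aos*, the libraries of *D. melanogaster* and *D. simulans* overlapped, and the plain difference was -0.03 (adjusted p = 0.833, edgeR). The plain difference of *grk* was -2.04 (adjusted p = 6.09e-05, edgeR). In the Dpp pathway *tld*, a protease that frees Dpp from its inhibitor, was higher in *D. melanogaster* (1 of 14 members, 7.14 %, against 6.71 % of all genes of the set, log2-fold change 0.87, adjusted p = 0.0334). This call was lost without *D. melanogaster* A or C, *D. simulans* A, B or C or paired-end *D. mauritiana* D, E or F (adjusted p 0.0538 to 0.106). In the Hedgehog pathway *rasp*, which encodes the acyltransferase that modifies Hedgehog (1 of 13 members, log2-fold change -0.46, adjusted p = 0.0346), and in the Wingless pathway *Wnt10* (1 of 17 members, log2-fold change -1.30, adjusted p = 0.0456) were higher in *D. simulans*. These are 7.69 and 5.88 % of the members, against 8.38 % of all genes of the set. The call of *rasp* was lost without *D. melanogaster* A or B, *D. simulans* A or B, single-end *D. mauritiana* B or paired-end *D. mauritiana* D or E (adjusted p 0.0509 to 0.0828) and that of *Wnt10* without *D. melanogaster* B or C, *D. simulans* A, B or C, single-end *D. mauritiana* B or C or paired-end *D. mauritiana* D or F (adjusted p 0.0604 to 0.111). Both calls were also lost with library totals as the scaling, without the filter on low counts and with the replicate block, that of *rasp* on the published annotation and that of *Wnt10* with voom and RLE factors. Without single-end *D. mauritiana* C, 2 members each of the Hedgehog and Wingless pathways were called higher in *D. melanogaster*.

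Of the marker loci in the name of the *D. simulans* strain, only *f* (forked), which encodes an actin-bundling protein of bristles, was called, and the log2-fold change was one of *D. melanogaster*. It had 7.01, 6.98 and 6.25 CPM in *D. melanogaster* and 21.9, 13.6 and 17.7 CPM in single-end *D. mauritiana*, while *D. simulans* had 13.8, 16.5 and 18.4 CPM and paired-end *D. mauritiana* 15.6, 14.8 and 15.7 CPM (log2-fold change -1.47, standard error 0.25, adjusted p = 0.00212, paired-end comparison 0.08). *v* (vermilion) was at most 0.689 CPM in *D. melanogaster* and 0.21 CPM in *D. simulans* (log2-fold change 2.03, adjusted p = 0.367), and *y* (yellow) was below the count rule with at most 0.488 CPM in any library (log2-fold change 0.93, adjusted p = 0.557). Among 21 genes of eye pigment synthesis and transport, none was higher in *D. melanogaster* and 3 were higher in *D. simulans* (14.3 %, against 15.1 % over the set). In the fit without single-end *D. mauritiana* C 5 were higher in *D. simulans*, and in that without *D. melanogaster* B 1 was higher in *D. melanogaster* and 4 in *D. simulans*. *cn* (cinnabar), kynurenine monooxygenase of the brown pigment pathway, had 34, 45.4 and 38.7 CPM in *D. melanogaster* and 113, 121 and 150.1 CPM in single-end *D. mauritiana*, while *D. simulans* had 79.2, 71.9 and 91.6 CPM and paired-end *D. mauritiana* 87.3, 90.4 and 112 CPM (log2-fold change -1.45, standard error 0.22, adjusted p = 0.00114). *st* (scarlet), a subunit of the pigment precursor transporter, and *se* (sepia), an enzyme of the red pigment pathway, had log2-fold changes of -2.22 (adjusted p = 0.00458) and -1.98 (adjusted p = 0.00153). *w* (white), the partner of Scarlet in the transporter, was not called (log2-fold change -0.27, adjusted p = 0.38).

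Genes that respond to ecdysone follow the time of development. Of 17 members, *Eip78C* and *Ldh* were higher in *D. melanogaster* and *ftz-f1* higher in *D. simulans* (17.6 %, against 15.1 % over the set), and the median was 0.24. In the fit without single-end *D. mauritiana* C, 5 members were higher in *D. melanogaster*. *Eip78C*, an early nuclear receptor gene, had 68.7, 122 and 66.7 CPM in *D. melanogaster* and 37.6, 32.6 and 53.8 CPM in single-end *D. mauritiana*, while *D. simulans* had 20.4, 13.9 and 22.7 CPM and paired-end *D. mauritiana* 37, 38.6 and 37.5 CPM (log2-fold change 2.04, standard error 0.37, adjusted p = 0.00323). *ftz-f1*, which encodes a nuclear receptor of the prepupal stage, had 44, 64.7 and 39.1 CPM in *D. melanogaster* and 69.1, 51.1 and 34.3 CPM in single-end *D. mauritiana*, while *D. simulans* had 76.3, 84 and 75.6 CPM and paired-end *D. mauritiana* 24.7, 25 and 30.1 CPM (log2-fold change -1.63, standard error 0.33, adjusted p = 0.00664). *Ldh*, lactate dehydrogenase, had 67.1, 48.7 and 70.7 CPM in *D. melanogaster* and between 16.7 and 22.5 CPM in the 9 libraries of the other species (log2-fold change 1.61, standard error 0.22, adjusted p = 0.000599). The species were collected at the same hour after egg laying, and a difference in developmental stage was not tested.

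In the lists of sex determination, heat shock and immunity 8.33, 5.88 and 10.5 % of the members were called, against 15.1 % over the set. The sex determination gene *tra* (transformer), the 1 called gene of 12 in its list, had 30.7, 42.8 and 31.8 CPM in *D. melanogaster* and 71.6, 70.2 and 49.8 CPM in single-end *D. mauritiana*, while *D. simulans* had 38.1, 35.2 and 34.3 CPM and paired-end *D. mauritiana* 28.9, 30.5 and 32.5 CPM (log2-fold change -1.09, standard error 0.22, adjusted p = 0.0067). *Hsp67Bc*, a small heat shock protein and 1 called gene of 17, had 26.7, 43.6 and 29.6 CPM in *D. melanogaster* and 101, 77.5 and 124 CPM in *D. simulans*, with 146, 119 and 118 CPM in single-end and 53, 65.5 and 65.5 CPM in paired-end *D. mauritiana* (log2-fold change -2.66, standard error 0.29, adjusted p = 0.00012). Both were called higher in *D. simulans* through *D. mauritiana*. For *tra*, the libraries of *D. melanogaster* and *D. simulans* overlapped, and the plain difference was -0.03 (adjusted p = 0.87, edgeR). The plain difference of *Hsp67Bc* was -1.60 (adjusted p = 0.00015, edgeR). Without single-end *D. mauritiana* C, 3 genes of the sex determination list were called higher in *D. melanogaster*, and without paired-end *D. mauritiana* E, 4 heat shock genes higher in *D. simulans*. Of 19 immune genes, *edin* (log2-fold change -4.05, adjusted p = 0.00381) and the peptidoglycan recognition protein gene *PGRP-SB1* (log2-fold change -2.95, adjusted p = 0.019) were called with negative values. *edin* was counted 6, 0 and 3 times in *D. melanogaster* libraries. *PGRP-SB1* had 1.5, 3.19 and 1.78 CPM in *D. melanogaster* and 0.905, 1.73 and 4.93 CPM in single-end *D. mauritiana*, while *D. simulans* had 1.80, 1.87 and 2.15 CPM and paired-end *D. mauritiana* 0.328, 0.308 and 0.256 CPM. *D. melanogaster* and *D. simulans* overlapped, the plain difference was 0.14, and the call was lost without *D. melanogaster* A or C (adjusted p 0.0504 to 0.0511). No member was called by edgeR among 6 hybrid incompatibility genes and 5 actin genes, where 1 and 0 genes had an unadjusted p below 0.05, while DESeq2 and limma-trend called 1 hybrid incompatibility gene higher in *D. melanogaster* and no actin gene. That count of 1 was also given by RLE factors, TMM within each table, the fat body covariate and the fits without *D. melanogaster* B or single-end *D. mauritiana* C, and 1 actin gene was higher in *D. simulans* on the direct and on the published annotation.

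Of 39 genes of DNA replication and the cell cycle, *Orc4*, *Orc5* and *dpa* were higher in *D. melanogaster* and *Cdk4* was higher in *D. simulans* (10.3 %, against 15.1 % over the set), with a median of 0.18. Without *D. melanogaster* B, 7 members were higher in *D. melanogaster*, and without *D. melanogaster* C 1 was; without single-end *D. mauritiana* C or paired-end *D. mauritiana* F, 2 were higher in *D. simulans*. *Orc4*, a subunit of the origin recognition complex, had 48.1, 43.4 and 49.1 CPM in *D. melanogaster* and 13.7, 20.6 and 26.3 CPM in single-end *D. mauritiana*, while *D. simulans* had 20.3, 20.04 and 20.3 CPM and paired-end *D. mauritiana* 30.9, 29.1 and 30.5 CPM (log2-fold change 1.79, standard error 0.25, adjusted p = 0.000755). *Cdk4* had a log2-fold change of -0.63 (adjusted p = 0.00766) and was called in the paired-end comparison only (0.52, against -0.11 in the single-end comparison). The call of *Orc5* (log2-fold change 0.72, adjusted p = 0.0312) was lost without *D. melanogaster* A or C, *D. simulans* A, B or C, single-end *D. mauritiana* B or paired-end *D. mauritiana* D or F (adjusted p 0.0501 to 0.103) and that of *dpa*, a subunit of the replicative helicase (log2-fold change 0.70, adjusted p = 0.013), without *D. melanogaster* C (adjusted p = 0.0521). Among 69 genes of oxidative phosphorylation *UQCR-11L* was the 1 called gene (1.45 %, against 15.1 % over the set). Without *D. melanogaster* B, 2 members were higher in *D. melanogaster*, and without single-end *D. mauritiana* C, 6 were higher in *D. simulans*.

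The 78 cytosolic ribosomal protein genes had 2 members higher in *D. melanogaster* and 4 higher in *D. simulans* (7.69 %, against 15.1 % over the set), with a median of -0.34. Without single-end *D. mauritiana* C, 23 members were called higher in *D. simulans* and the median was -0.52. Without *D. melanogaster* A or C, single-end *D. mauritiana* A or B or any of the paired-end libraries, 2 members were called higher in *D. simulans*, and without *D. simulans* C 1 was higher in *D. melanogaster*. In the plain difference between *D. melanogaster* and *D. simulans* the median was 0.32. The calls with the smallest adjusted p were for paralogs that stand beside a ubiquitous ribosomal protein gene. *RpS5b* had 8.89, 11.5 and 9.69 CPM in *D. melanogaster* and 1.13, 1.08 and 0.954 CPM in *D. simulans*, with 2.65, 4.36 and 2.37 CPM in single-end and 1.58, 1.40 and 1.44 CPM in paired-end *D. mauritiana* (log2-fold change 2.16, standard error 0.35, adjusted p = 0.00183). On the published annotation the sign of *RpS5b* was the opposite (-5.60). *RpS19b* was also higher in *D. melanogaster* (log2-fold change 1.87, adjusted p = 0.017), a call lost without *D. simulans* C (adjusted p = 0.053). *RpL22-like* and *RpS10a* were higher in *D. simulans*, with log2-fold changes of -2.54 (adjusted p = 0.000694) and -3.05 (adjusted p = 0.0018). *RpS10a* had 5, 2 and 2 counts in *D. melanogaster* and 33, 61 and 34 counts in single-end *D. mauritiana*, while *D. simulans* had 75, 67 and 94 counts and paired-end *D. mauritiana* 104, 124 and 149 counts, so its fitted value depends on the prior count. Reads that fit both paralogs of such a pair could have been split between them. Of 71 mitochondrial ribosomal protein genes, 4.23 % were called, against 15.1 % over the set. *mRpL30* (log2-fold change 1.30, adjusted p = 0.00334) and *mRpL53* (log2-fold change 0.85, adjusted p = 0.0238) were higher in *D. melanogaster*. *mRpS22* (log2-fold change -0.71, adjusted p = 0.0199) was called higher in *D. simulans*. For *mRpS22*, the libraries of *D. melanogaster* and *D. simulans* overlapped, and the plain difference was -0.19 (adjusted p = 0.222, edgeR). The call of *mRpL53* was lost without *D. simulans* B or C or paired-end *D. mauritiana* D or F (adjusted p 0.0645 to 0.0805) and that of *mRpS22* without paired-end *D. mauritiana* D (adjusted p = 0.0502). Of the mitochondrial ribosomal protein genes, 7 were higher in *D. simulans* without single-end *D. mauritiana* C.

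In the fat body list, which spanned a wide range of sums in *D. melanogaster*, the storage protein gene *Lsp2* had 1043, 26.5 and 934 CPM in *D. melanogaster* and 26.9, 1.35 and 1.34 CPM in *D. simulans*, with 111, 173 and 389 CPM in single-end and 12.6, 14.3 and 5.78 CPM in paired-end *D. mauritiana*. With the spread among *D. melanogaster* libraries its log2-fold change was 1.72 ± 1.72 (adjusted p = 0.583), and that of the fat body receptor gene *Fbp1* was -0.05 ± 1.87 (adjusted p = 0.994). The called fat body gene (1 of 10, 10 %, against 15.1 % over the set) was *mdy* (midway), an enzyme of triglyceride synthesis, with 173, 233 and 106 CPM in *D. melanogaster* and 31, 29.7 and 32.9 CPM in *D. simulans*, and between 24.8 and 41.2 CPM in *D. mauritiana* (log2-fold change 2.85, standard error 0.33, adjusted p = 0.000174). *mdy* was highest in *D. melanogaster* B, where the sum of the list was lowest. Without *D. melanogaster* B, 3 fat body genes were higher in *D. melanogaster*, and without *D. simulans* A, 2 were. None of 17 hemocyte genes was called by edgeR, DESeq2, limma-trend or voom, 3 had an unadjusted p below 0.05, and *Hml* (hemolectin), their defining gene, had 435, 76.4 and 365 CPM in *D. melanogaster* and 253, 163 and 107 CPM in *D. simulans*, with between 87.9 and 252 CPM in *D. mauritiana* (log2-fold change 1.46, adjusted p = 0.234). Without *D. melanogaster* B, 6 hemocyte genes were called higher in *D. melanogaster*, *Hml* among them (adjusted p = 0.0197, edgeR), and 1 higher in *D. simulans*. With the fat body covariate 3 hemocyte genes were higher in *D. simulans*. None of the 6 salivary gland genes of the set was called by any of the 4 tools, with 0 at an unadjusted p below 0.05, and the sum of this list ranged between 183 and 222 CPM in *D. melanogaster* and between 6.79 and 188 CPM in *D. simulans*, with between 6.71 and 268 CPM in *D. mauritiana*.

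In the glial list (17 members) *Mdr65* and *alrm* were called with negative values (11.8 %, against 15.1 % over the set). For *alrm*, whose CPM follow below, the plain difference had the opposite sign (0.76). The defining gene *repo* was not called (log2-fold change -0.02, standard error 0.16, adjusted p = 0.956), with between 22.5 and 23.5 CPM in *D. melanogaster* and between 15.6 and 19.8 CPM in *D. simulans*. *Mdr65*, a transporter of the blood-brain barrier, had 10.9, 6.74 and 9.77 CPM in *D. melanogaster* and 21.1, 32.2 and 29.1 CPM in *D. simulans*, with between 13.2 and 33.7 CPM in *D. mauritiana* (log2-fold change -1.87, standard error 0.43, adjusted p = 0.012). Of 18 neuronal genes, 11.1 % were called, against 15.1 % over the set. *nSyb*, which encodes the synaptobrevin of synaptic vesicles, was called lower in *D. melanogaster* (log2-fold change -0.85, adjusted p = 0.01) and *Nplp1* higher. *nSyb* had 9.94, 12.7 and 10.5 CPM in *D. melanogaster* and 18.1, 21.1 and 17.9 CPM in single-end *D. mauritiana*, while *D. simulans* had 12.6, 11.5 and 12.7 CPM and paired-end *D. mauritiana* 11.8, 12 and 11.5 CPM. The libraries of *D. melanogaster* and *D. simulans* overlapped, and the plain difference of *nSyb* was -0.15 (adjusted p = 0.349, edgeR). The 10 tracheal genes gave *knrl* (log2-fold change 1.25, adjusted p = 0.0152) and the chitin deacetylase gene *verm* (log2-fold change 0.69, adjusted p = 0.00836), both higher in *D. melanogaster* (20 %, against 15.1 % over the set). Of 22 muscle genes, 4.55 % were called, against 15.1 % over the set. *sls*, which encodes a titin-like protein, was called with a positive value (log2-fold change 1.09, adjusted p = 0.0274), a call lost without *D. simulans* A or C, single-end *D. mauritiana* A or B or paired-end *D. mauritiana* D or E (adjusted p 0.0557 to 0.0668). *sls* had 107, 139.6 and 94.2 CPM in *D. melanogaster* and 39.2, 45.8 and 53.9 CPM in single-end *D. mauritiana*, while *D. simulans* had 175, 292 and 222 CPM and paired-end *D. mauritiana* 214, 217 and 169 CPM. Its plain difference was -1.02, with all *D. melanogaster* libraries below those of *D. simulans*, and the sum of the muscle list moved with read type in the same way. The myosin gene *Mhc* had 143, 41.1 and 137 CPM in *D. melanogaster* and 422, 711 and 451 CPM in *D. simulans*, with 30.2, 47.6 and 6.76 CPM in single-end and 221, 127 and 150.2 CPM in paired-end *D. mauritiana* (log2-fold change 0.26, adjusted p = 0.886). Without single-end *D. mauritiana* C, 2 genes each of the neuronal and muscle lists were called higher in *D. melanogaster*, as were 2 muscle genes without *D. melanogaster* B, and without paired-end *D. mauritiana* E 2 neuronal genes were higher in *D. simulans*. In the list of ring gland and neuroendocrine genes, whose sum was between 165 and 531 CPM in *D. melanogaster* and between 290.5 and 511 CPM in *D. simulans*, against between 542 and 1210 CPM in *D. mauritiana*, the insulin-like peptide gene *Ilp5* was called (11.1 % of the list, against 15.1 % over the set), with 3 members higher in *D. simulans* without paired-end *D. mauritiana* D and 2 without single-end *D. mauritiana* C. *Ilp5* had 1, 0 and 1 counts in *D. melanogaster* and 85, 42 and 29 counts in single-end *D. mauritiana*, a ratio of 0.014 (95% exact interval 0.00168 to 0.0513), while *D. simulans* had 0.0975, 0.101 and 0.0800 CPM and paired-end *D. mauritiana* 0.208, 0.0820 and 0.0375 CPM. It was called higher in *D. simulans* through *D. mauritiana* (log2-fold change -6.16, standard error 1.30, adjusted p = 0.00775). The plain difference of *Ilp5* was -1.67 (adjusted p = 0.247, edgeR). Paired-end minus single-end *D. mauritiana* was -4.50 (adjusted p = 0.00227, edgeR).

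Primers for qPCR are listed for 11 genes, and 3 of them were called here (27.3 %, against 15.1 % over the set). The called genes *piwi*, *alrm* and *Nplp1* had been chosen in the study for differences seen in these libraries, so the count is not independent of them. Primers of the called genes *piwi* and *alrm* are shown because they mark the transcripts that these primers amplify, written 5′ to 3′.
piwi forward (2L): ttggaattagttggccgtaatct
piwi reverse (2L): cgaatcgatgtctcatagcccg
alrm forward (3R): attgcagtgcgggaatttgc
alrm reverse (3R): agaaaggtgagcatggtggt
*alrm*, which encodes a leucine-rich repeat protein of astrocyte-like glia, had 0.488, 0.481 and 0.243 CPM in *D. melanogaster* and 69.7, 40.8 and 49 CPM in single-end *D. mauritiana*, while *D. simulans* had 0.276, 0.257 and 0.179 CPM and paired-end *D. mauritiana* 5.46, 9.81 and 6.20 CPM. Both species were far below *D. mauritiana* (-7.05 in the single-end comparison and -4.92 in the paired-end comparison), and the log2-fold change between them was -2.13 ± 0.47 (adjusted p = 0.0104). The libraries of *D. melanogaster* and *D. simulans* had similar CPM, and single-end *D. mauritiana* had more than paired-end *D. mauritiana*. *Nplp1*, a neuropeptide precursor gene, was high in *D. melanogaster* only, with 28.4, 24.5 and 31.9 CPM in *D. melanogaster* and at most 2.71 CPM in the 9 libraries of the other species (log2-fold change 4.45, standard error 0.31, adjusted p = 4.22e-06). The other 8 genes were not called. Their log2-fold changes with standard errors were -0.22 ± 0.25 for *CG13784*, -0.18 ± 0.21 for *CBP*, -0.04 ± 0.49 for *lace*, 0.16 ± 0.15 for *CG3558*, 0.18 ± 0.20 for *Cp110*, 0.36 ± 0.31 for *CG6766*, 0.44 ± 0.50 for *RAF2* and 0.52 ± 0.44 for *dac*.

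Calls were found on all chromosome arms. The share of called genes was 17.4 % of 1511 genes on X, 14.6 % of 1679 on 2L, 14.4 % of 1881 on 2R, 15.4 % of 1869 on 3L, 14.9 % of 2354 on 3R and 18.7 % of 75 on the fourth chromosome. On X, 111 genes were higher in *D. melanogaster* and 152 higher in *D. simulans*. The named lists cover 825 genes of the set and 102 of its calls, and 1348 called genes are on none of them.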

How the data were processed

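The deposited values are whole-number counts of reads per gene without normalization. To make them, the authors cut the paired-end reads into 50 bp reads and mapped the untrimmed reads of each species with Bowtie2 to its own set of re-annotated coding sequences, and read numbers were taken with SAMtools 0.1.19. How strand was used is not given in the sources used here, and reads that fit overlapping genes or paralogs equally well cannot be told apart. Symbols were found for 13097 of 13311 identifiers. The qPCR measurements were not analysed here.

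Both reciprocal tables were joined by identifier. All 12 libraries entered 1 fit of the quasi-likelihood test of edgeR 4.0.16 in R 4.3.3 (TMM normalization, filterByExpr, 1 coefficient per group, no replicate block), and p-values were adjusted after Benjamini and Hochberg over the 11287 genes tested. Standard errors were derived from the log2-fold change and its F statistic. CPM were not divided by gene length, so levels are compared within genes only. Chromosome arms come from the *D. melanogaster* annotation and positions from the alignment of the gene models to the published *D. mauritiana* genome. Exact 95% intervals of ratios take each count as independent and leave out the spread among replicates. Since 1 paired-end fragment can give several counts, intervals of paired-end ratios are too narrow even for counting error. No pair of libraries within a group was identical within sampling noise (chi-square per degree of freedom at least 35.7). The lower depth of the single-end libraries limits the precision for weakly expressed genes.

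The genes named are, in each direction, the 10 largest differences among calls that averaged 100 or more counts per library in each table and held without each library in turn. To these were added up to 4 called members of each of 38 lists, by smallest adjusted p, and, whatever their values, *y*, *v*, *f*, *w*, the genes with listed qPCR primers and defining markers of other cell types. *SoYb*, *cuff*, *r2d2*, *Gasz*, *vret*, *Dcr-1* and *GstE3* were named after their values had been seen. The gene set, the lists and the tests were chosen with earlier results of these data known. The alternatives were DESeq2 1.42.0, limma 3.58.1 (limma-trend, and voom with group weights), other scalings, filters and annotations, paired-end counts divided by 4, a replicate block, a fat body covariate, and each library left out in turn.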

Additional observations from a re-analysis of the deposited data

How the results depend on the processing

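Against 645 genes higher in *D. melanogaster* and 805 higher in *D. simulans*, the plain difference, in which read type is not cancelled, gave 2908 and 2630. The 5902 genes with identical gene model lengths held 355 and 483 of the calls. They are a part of the set read from the same fit, so these counts fell with the number of genes. The fits without 1 library ranged from 459 to 816 and from 612 to 1086 genes, with the lowest numbers without *D. simulans* C and paired-end *D. mauritiana* D and the highest without single-end *D. mauritiana* C. The other alternatives stayed within 1.5 times the main counts, and limma-trend gave 655 and 804, DESeq2 942 and 1043 and library totals 712 and 701. In the gene lists, voom called 9 P450, 3 odorant-binding and 0 glial genes, against 14, 5 and 2, and DESeq2 called 8 odorant-binding and 3 ring gland genes, against 5 and 1. For *D. melanogaster* against *D. mauritiana*, voom gave 696 higher and 925 lower genes, and the 5902 genes of identical lengths held 768 and 894. For *D. simulans* against *D. mauritiana*, voom gave 1341 and 1383, and the fits without 1 library from 401 to 806 and from 532 to 930. Here the 5902 genes of identical lengths held 421 and 443.

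With the replicate letter as a block, 583 and 716 genes were called, and 1249 calls were shared with the unblocked fit. The block covered the letters A to C and left paired-end *D. mauritiana* D to F without a block term. The labels do not say whether libraries of the same letter were handled together. Deviations from the group means correlated between libraries of *D. melanogaster* and single-end *D. mauritiana* by -0.21 for A, 0.18 for B and 0.13 for C. Between *D. melanogaster* and *D. simulans* these values were 0.035, 0.016 and -0.19. With 3 libraries per group they cannot decide whether the letters mark pairs.

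Of the named genes, *repo* changed sign with DESeq2 (0.00042), RLE factors (0.0016), library totals (0.049), the plain difference (0.35) and without 1 library (-0.14 to 0.029). *Fbp1* did so with limma-trend (0.98), voom (1.09), library totals (0.0296), the plain difference (5.62) and without 1 library (-0.59 to 3.21), and *lace* with library totals (0.034) and without 1 library (-0.36 to 0.40). *Cp110* ranged from -0.0014 to 0.30 and *Mhc* from -0.22 to 0.87 without 1 library, and *Mhc* was -0.15 with the fat body covariate, added with the data in view. *RpS5b* was -5.60 (adjusted p = 2.81e-07, edgeR) on the published annotation. In the plain difference the sign was reversed for *dac* (-0.42), *CG3558* (-0.24), *CG6766* (-0.34), *RAF2* (-0.87), *alrm* (0.76), *PGRP-SB1* (0.14), *sls* (-1.02) and *Mhc* (-2.30). The causes were not tested. Over all named genes and alternatives, 97 values lost and 6 gained their call, 31 changed sign and 2285 kept both. Part of the 2285 was fixed in advance. The genes with the largest differences had been chosen to keep their call without each library. Identical lengths used the main fit, so values could not change there.

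With 3 libraries per group and 1 strain per species, p-values measure the spread among replicates of these strains. The median standard error of 0.26 limits the differences that could be called.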
